A study of Mus musculus and Homo sapiens with 15 samples.

Results

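C-to-U edits in the kinesin and cytoplasmic dynein genes of mouse brain were examined in RBFOX2-INSCRIBE sections and in both of their controls. The 50 motor genes were all genes whose symbol in the label of an edit cluster began with Kif, Klc, Dync or Dynl and that had a cluster in at least 1 of the 9 brain libraries, out of 20838 genes named in brain cluster labels. They comprised 31 Kif genes and 3 Klc genes (kinesin light chains). The Kif genes were kinesin heavy chains and others taken by their symbol, such as Kif1bp and Kifap3. The rest were 7 Dync genes (dynein heavy, intermediate and light intermediate chains) and 9 Dynl genes (dynein light chains). INSCRIBE marks the RNAs near an RNA-binding protein in fixed tissue: an antibody to the protein is followed by APO1-Nb, a fusion of the cytidine deaminase APOBEC1 with a nanobody against that antibody, and deaminated cytidines are read as T by RNA sequencing. The RBFOX2-INSCRIBE sections received the anti-RBFOX2 antibody and APO1-Nb, the enzyme-only sections APO1-Nb without antibody, and the buffer-only sections neither, with n = 3 libraries in each group. All were coronal brain slices of 20 µm, labelled as fixed with paraformaldehyde, from 2-month-old female C57BL/6J wild-type mice. No gene was altered in these animals. Each library was a single slice, and the study's methods name 2 mice in all, so slices shared animals and the p-values measure the spread between slices.

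Kinesins and cytoplasmic dynein are the motors that carry cargo along microtubules, and neurons depend on both to supply axons and dendrites. Most kinesins move toward the plus ends of microtubules, outward in axons. Their heavy chains hold the motor domain, and in kinesin-1 light chains bind cargo. Dynein returns cargo toward the cell body through a heavy chain, with intermediate and light chains that bind cargo and the dynactin complex. RBFOX proteins bind UGCAUG, or its core GCAUG, mostly in introns, and are known as splicing regulators of neurons: a site downstream of an alternative exon often favors its inclusion and a site upstream often favors skipping.

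Replicated clusters are those that the authors kept by intersecting the replicates of a group, before they subtracted buffer-only clusters. In RBFOX2-INSCRIBE 3 of 18 replicated motor gene clusters held UGCAUG on the strand of the gene, against 1 of 21 in enzyme-only and 1 of 11 in buffer-only. These clusters covered 1678, 1215 and 476 nt in that order, and the counts are not adjusted for length. The shares over all replicated clusters were 8.09% of 5177 in RBFOX2-INSCRIBE, 1.96% of 4542 in enzyme-only and 1.099% of 2092 in buffer-only. After the subtraction of buffer-only clusters they were 8.31% of 5031 in RBFOX2-INSCRIBE and 2% of 4401 in enzyme-only, and all 18 and 21 motor gene clusters remained. The RBFOX2-INSCRIBE clusters with the motif lay in Dync1i2, Klc1 and Kif1b and are the sites on which the results turn. The enzyme-only cluster with the motif lay in the annotated 3′ UTR of Kif3b and is shown as a control. Each window has UGCAUG (written TGCATG, in capitals) with 12 bases on either side, read 5′ to 3′ on the strand of the gene from the RefSeq sequence of GRCm38 (mm10). The windows are chr2:71227680-71227709 on the plus strand (Dync1i2), chr12:111790829-111790858 on the plus strand (Klc1), chr4:149259846-149259875 on the minus strand (Kif1b) and chr2:153332773-153332802 on the plus strand (Kif3b).
Dync1i2: gcatgaaatgtgTGCATGtttaacataatg
Klc1: acctctgctttgTGCATGttaggcaactgc
Kif1b: tcctgaaaaccgTGCATGactaagttttaa
Kif3b: ctgtctgatgccTGCATGctgcctgaattg
Edited reads are reads that carry a C-to-U change at a filtered site. Within these 30 nt, the RBFOX2-INSCRIBE libraries together had 11 edited reads of Dync1i2, against 0 in enzyme-only and 0 in buffer-only. Klc1 had 4, 0 and 0, and Kif1b had 4, 0 and 0, in the same order of groups. Kif3b had 1 in RBFOX2-INSCRIBE, 3 in enzyme-only and 0 in buffer-only. A count of 0 allows up to 3 reads. The clusters were chosen from the libraries of their own group, so these counts describe the sites and are no test. Some replicated clusters had no edited read at a filtered site in 1 or more libraries of their own group. Examples are Kif17 with 0, 0 and 0 in RBFOX2-INSCRIBE, a Kif21b cluster with 0, 0 and 1 in enzyme-only, and Klc4 with 1, 0 and 1 in buffer-only.

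Buffer-only libraries had the fewest edits. Filtered sites numbered between 243545 and 281314 per RBFOX2-INSCRIBE library, between 221730 and 239874 per enzyme-only library and between 159087 and 217309 per buffer-only library, and 88.4% to 91.3% of sites rested on 1 edited read, at a median of 16 to 17 covering reads. Edited reads in genes numbered 180395 to 315513 per library. Only sites with an edited read are listed, so RNA levels were not measured. More cells that express a gene, more RNA per cell and more edits per RNA therefore cannot be told apart. CPM here is the edited reads of a gene per 1000000 edited reads in genes of the library. Neuron markers were edited in every library (4 of 5 genes with reads, none assigned to Tubb3), and their sum ranged between 4380 and 4912 CPM in RBFOX2-INSCRIBE, between 3923 and 4413 CPM in enzyme-only and between 3781 and 4296 CPM in buffer-only. Oligodendrocyte markers (4 of 4 genes with reads) summed to between 349 and 471 CPM, between 573 and 588 CPM and between 427 and 521 CPM in that order. In RBFOX2-INSCRIBE the neuron sum thus overlapped enzyme-only narrowly from above, and the oligodendrocyte sum lay wholly below it.

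Edits in motor genes were spread thinly over long genes. Across the 9 libraries they made up 6897 clusters with 8886 edited bases (the edited base calls within a cluster), and 35 of the 50 genes had clusters in every library while 3 had them in only 1. Motor clusters numbered 945, 865 and 822 in RBFOX2-INSCRIBE, 814, 806 and 708 in enzyme-only, and 797, 588 and 552 in buffer-only. As a share of all clusters this was between 0.377% and 0.429% for RBFOX2-INSCRIBE, between 0.393% and 0.447% for enzyme-only and between 0.395% and 0.423% for buffer-only, ranges that overlapped. Edited reads of all motor genes together amounted to 4065, 3613 and 4198 CPM in RBFOX2-INSCRIBE, 4056, 3754 and 3563 CPM in enzyme-only, and 3861, 3728 and 3681 CPM in buffer-only, which also overlapped. The most edited genes were Kif1a and Kif1b, kinesins that carry synaptic vesicle precursors along axons, with 811 and 695 edited reads over the 9 libraries, followed by Dync1i1, Kif21a, Kif5c, Kif21b, Klc1 and Dync1i2 with between 390 and 554. Per kilobase of intron, Kif1a had 4.68 CPM in RBFOX2-INSCRIBE, 4.68 CPM in enzyme-only and 3.996 CPM in buffer-only, whereas Kif1b had 2.36, 2.37 and 2.15 CPM in the same order. At the low end, 22 genes had 0 to 64 edited reads in all 9 libraries together and did not pass the filter on low counts; they include Kif11 and Kif22, kinesins of dividing cells, and most dynein light chains. Kif28 had clusters but no edited read was assigned to it, and the labels of all its clusters also name another gene. The Dynlt1 genes and the pseudogene Dynlt1-ps1 are near-identical copies, so their reads are uncertain.

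**Figure D1:**
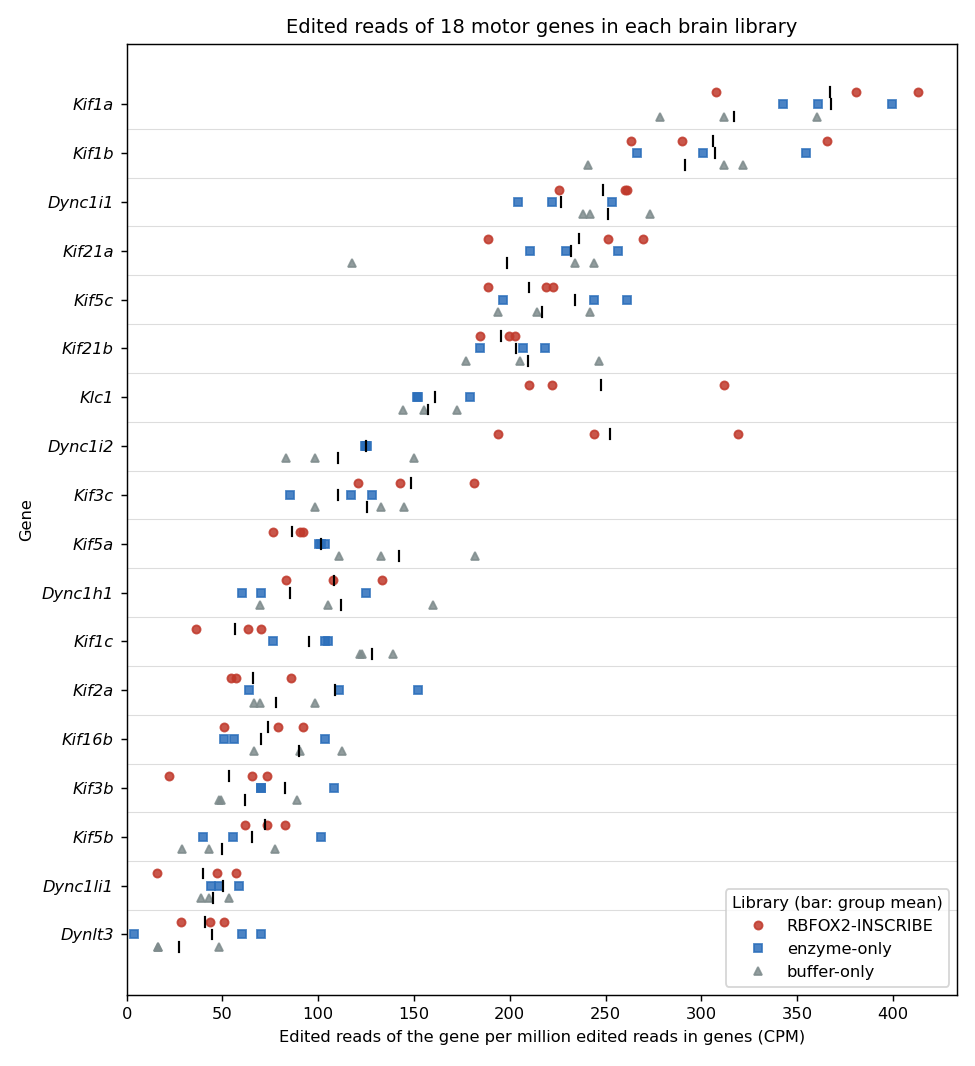
Edited reads of the 18 named motor genes, in CPM on the horizontal axis, with 1 point per library and a vertical bar at each group mean. Dync1i2 and Klc1 are the genes whose RBFOX2-INSCRIBE points all lie to the right of the enzyme-only and buffer-only points, and Kif1c and Kif5a have all RBFOX2-INSCRIBE points to the left.

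RBFOX2-INSCRIBE was set against enzyme-only to ask which motor genes gained edits when the antibody was present. Of the 28 motor genes tested with edgeR, 1 was called higher and 0 lower, where a call is a Benjamini-Hochberg adjusted p below 0.05 over 6389 genes, of which 0.908% were called higher and 0.0157% lower. In 2 motor genes every RBFOX2-INSCRIBE library was above every enzyme-only library and in 2 every one was below (6.57% and 9.61% of all genes tested). At an unadjusted p below 0.05 there were 3 motor genes higher and 2 lower, beside 7.7% and 4.51% of all genes. The median log2 change of the 28 genes was 0.08, beside -0.00444 for all genes tested, with 17 above 0 (49.6% of all genes tested were above 0). The single called gene was Dync1i2.

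**Figure D2:**
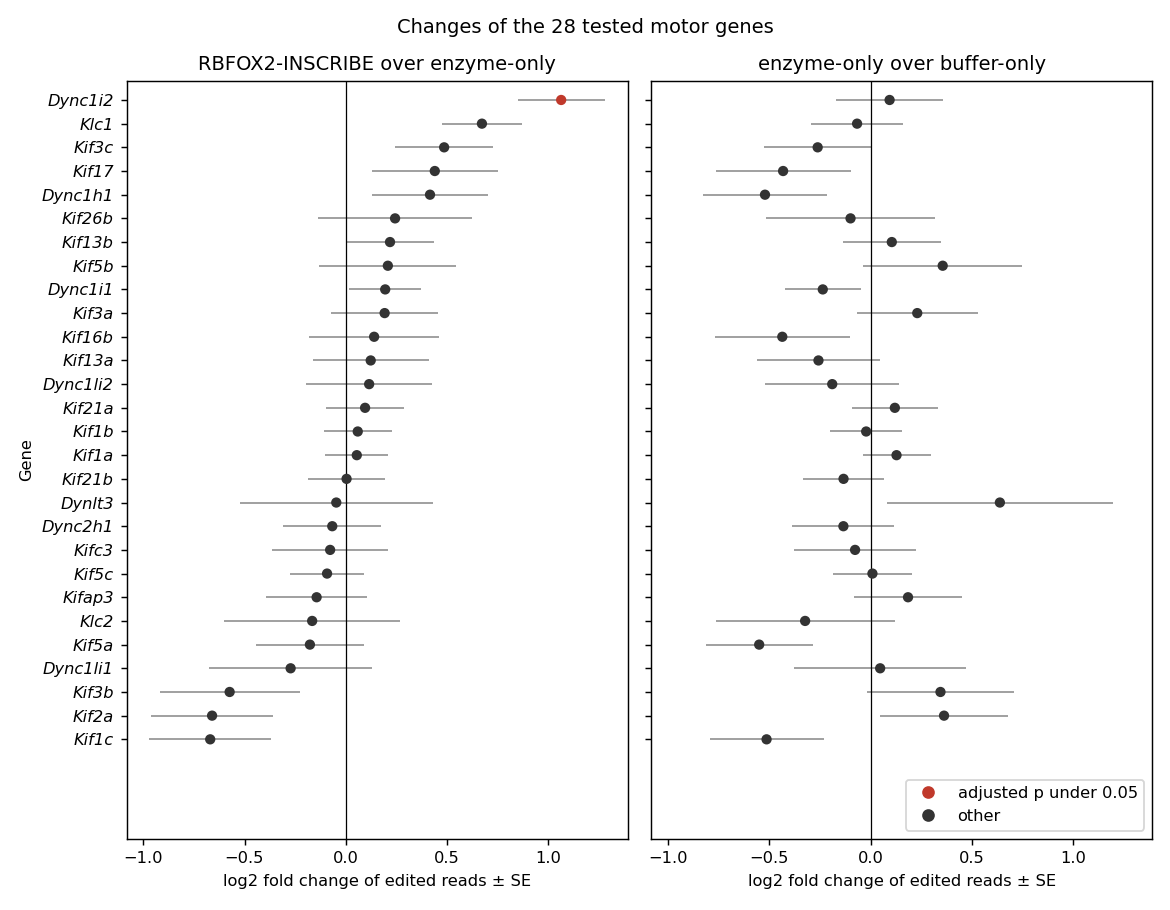
log2 fold change with its standard error for the 28 tested motor genes, ordered by the change of RBFOX2-INSCRIBE over enzyme-only (left) and shown in the same order for enzyme-only over buffer-only (right). Dync1i2 is the single gene with an adjusted p below 0.05, on the left; no motor gene passed on the right.

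Among the dynein chains, Dync1i2 was higher in RBFOX2-INSCRIBE. It encodes an intermediate chain, the subunit through which dynein binds dynactin and many cargoes, and its gene spans chr2:71211706-71263303 (GENCODE M21). Edited reads numbered 61, 77 and 88 in RBFOX2-INSCRIBE, 32, 34 and 31 in enzyme-only, and 24, 28 and 15 in buffer-only. Every RBFOX2-INSCRIBE library was above every control library, and the enzyme-only libraries lay within the buffer-only range after scaling. Mean levels were 252 ± 63.0 CPM in RBFOX2-INSCRIBE, 125 ± 0.767 CPM in enzyme-only and 110.5 ± 35 CPM in buffer-only (SD, n = 3), and RBFOX2-INSCRIBE exceeded enzyme-only by a log2 change of 1.07 ± 0.22 (SE; edgeR adjusted p = 0.00229). The mean number of reads covering its listed sites was 43.3 in RBFOX2-INSCRIBE, 42.8 in enzyme-only and 44.3 in buffer-only. Without RBFOX2-INSCRIBE replicate 3, its highest library, the change was 0.87 with an adjusted p of 0.0597, and with covering reads as an offset it was 1.04 with an adjusted p of 0.0607. By cluster label, its edited bases numbered 49, 70 and 65 in introns and 12, 6 and 22 in exons in RBFOX2-INSCRIBE, against 27, 26 and 26 in introns and 5, 7 and 4 in exons in enzyme-only. A label applies to a whole cluster, also where only part of it is exonic. By the position of each site, exonic edited reads numbered 10, 7 and 11 in RBFOX2-INSCRIBE, 5, 7 and 3 in enzyme-only and 5, 5 and 3 in buffer-only, and were not tested.

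The other dynein chains had smaller differences, and none was called. Dync1i1, the second intermediate chain gene, whose expression is largely neuronal, had 249 ± 20.1 CPM in RBFOX2-INSCRIBE, 227 ± 24.7 CPM in enzyme-only and 251 ± 19.1 CPM in buffer-only, a log2 change of 0.20 over enzyme-only that did not pass the test (adjusted p = 0.739). Dync1h1, the heavy chain that holds the motor domain, had 42, 34 and 23 edited reads in the RBFOX2-INSCRIBE libraries, 32, 19 and 15 in enzyme-only and 39, 13 and 19 in buffer-only. These ranges overlapped, and its log2 change of 0.42 over enzyme-only had an adjusted p of 0.619. For the light intermediate chain Dync1li1 the log2 change was -0.27 (adjusted p = 0.869), and for Dynlt3, a light chain and the only tested Dynl gene, it was -0.05 (adjusted p = 0.985), with 1 edited read in enzyme-only replicate 2 and 15 to 18 in the other enzyme-only libraries.

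Of the kinesin light chains, Klc1 had the larger difference, and it was called only in introns. Klc1 couples kinesin-1 to cargo and is known for many splice forms that differ at the carboxyl end; its gene spans chr12:111758849-111807844. Edited reads numbered 66, 70 and 86 in RBFOX2-INSCRIBE, 46, 41 and 38 in enzyme-only, and 42, 29 and 26 in buffer-only. Every RBFOX2-INSCRIBE library was above every control library after scaling, with means of 248 ± 55.7 CPM in RBFOX2-INSCRIBE, 161 ± 15.7 CPM in enzyme-only and 157 ± 14.2 CPM in buffer-only. The log2 change over enzyme-only was 0.67 ± 0.20 and did not pass over all genes (adjusted p = 0.0779). It was 0.49 without RBFOX2-INSCRIBE replicate 3 and 0.19 with every listed site counted. Covering reads per listed site of Klc1 averaged 42.1 in RBFOX2-INSCRIBE, 36.7 in enzyme-only and 27.9 in buffer-only. Klc2, a further light chain, had 37.3 ± 11.9 CPM in RBFOX2-INSCRIBE and 44.1 ± 11.5 CPM in enzyme-only, and Klc4 was not tested.

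The kinesin heavy chains differed in both directions, and none was called. Kif3c, a kinesin-2 heavy chain of neurons, had 38, 45 and 50 edited reads in the RBFOX2-INSCRIBE libraries, 30, 23 and 32 in enzyme-only and 24, 27 and 24 in buffer-only, a log2 change of 0.49 over enzyme-only (adjusted p = 0.400). After scaling, the lowest RBFOX2-INSCRIBE library of Kif3c lay below the highest enzyme-only library. Kif1c, which moves vesicles and is expressed in many tissues, had the opposite sign, with 22, 20 and 10 edited reads in the RBFOX2-INSCRIBE libraries, 27, 28 and 19 in enzyme-only and 30, 26 and 22 in buffer-only. Its groups did not overlap, at 56.5 ± 17.9 CPM in RBFOX2-INSCRIBE, 94.96 ± 16.3 CPM in enzyme-only and 128 ± 9.67 CPM in buffer-only, but the log2 change over enzyme-only of -0.67 did not pass (adjusted p = 0.325). Kif2a, a kinesin that takes microtubules apart rather than walking on them, had a log2 change of -0.66 (adjusted p = 0.339), and Kif3b, which pairs with the kinesin-2 chain Kif3a, had -0.57 (adjusted p = 0.543). The most edited kinesins lay close to 0, with log2 changes of 0.05 for Kif1a, 0.06 for Kif1b, 0.10 for Kif21a, -0.09 for Kif5c and 0.00442 for Kif21b. Among the other kinesin-1 heavy chains, Kif5a and Kif5b had -0.18 and 0.21, and Kif16b, an endosomal kinesin, had 0.14. The 10 tested motor genes not named by the rule, Klc2 among them, lay between -0.17 and 0.44.

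Most edits of motor genes lay in introns. Introns held between 69.7% and 75% of motor edited reads under RBFOX2-INSCRIBE, between 61.5% and 67% under enzyme-only and between 63.5% and 70.9% under buffer-only. Over all genes the corresponding ranges were 55.3% to 62.3%, 49.4% to 52.5% and 53.1% to 61.04%. Exonic and intronic reads of each gene were therefore also fitted as separate rows. Intron rows as a whole were higher in RBFOX2-INSCRIBE, with a median log2 change over enzyme-only of 0.27 in 2957 rows, and exon rows lower, with -0.26 in 4365 rows. The motor genes had 0.30 in 22 intron rows and -0.29 in 17 exon rows. In this fit 2 motor rows were called higher and 0 lower, both of them introns, beside 1.17% of all rows called higher and 0.137% lower (2.47% of intron rows and 0.298% of exon rows were called higher).

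The intron of Dync1i2 had 51, 70 and 77 edited reads in the RBFOX2-INSCRIBE libraries, 27, 27 and 28 in enzyme-only, and 19, 23 and 12 in buffer-only, and that of Klc1 had 65, 69 and 81, 34, 39 and 31, and 39, 26 and 25 in the same order. In both genes all RBFOX2-INSCRIBE libraries were above all control libraries. The log2 change over enzyme-only was 1.13 ± 0.26 for Dync1i2 introns (edgeR adjusted p = 0.0105) and 0.90 ± 0.23 for Klc1 introns (edgeR adjusted p = 0.0273), against the intron median of 0.27. Neither call held without RBFOX2-INSCRIBE replicate 3 (adjusted p of 0.0567 for Dync1i2 and 0.0913 for Klc1), without enzyme-only replicate 1 (0.0856 and 0.143) or without enzyme-only replicate 2 (0.0679 for both), and that of Klc1 was also lost without enzyme-only replicate 3 (0.104). Exonic reads of Klc1 were few, with 1, 1 and 5 in RBFOX2-INSCRIBE, 12, 2 and 7 in enzyme-only and 3, 3 and 1 in buffer-only, and were not tested. Kif21b, a kinesin that also restrains microtubule growth, had differences of opposite sign in introns and exons, neither called. Its introns had 41, 39 and 21 reads in the RBFOX2-INSCRIBE libraries, 17, 19 and 14 in enzyme-only and 28, 15 and 19 in buffer-only (log2 change over enzyme-only 0.85, adjusted p = 0.166), and its exons had 17, 25 and 34, 39, 37 and 32, and 22, 31 and 13 (-0.64, adjusted p = 0.316). Kif3c had 20, 23 and 35 exonic reads in the RBFOX2-INSCRIBE libraries, 16, 7 and 11 in enzyme-only and 9, 16 and 6 in buffer-only (log2 change 1.05, adjusted p = 0.166), which did not pass either.

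Within Dync1i2, Klc1 and Kif1b the edits of RBFOX2-INSCRIBE gathered in short stretches around the windows printed above. A stretch is the span of the replicated RBFOX2-INSCRIBE clusters of a gene that lie within 1000 nt of one another and include the cluster with UGCAUG. Because the RBFOX2-INSCRIBE libraries defined the stretches, the values that follow are descriptions with no test. The stretch of Dync1i2 covers 791 nt at chr2:71227684-71228474, or 1.53% of the gene, with 3 clusters, 2 UGCAUG and 4 GCAUG in all. In the coding transcripts that lack it, this sequence lies toward the 3′ end of intron 3 (71219419 to 71228599); in 3 annotated coding transcripts it holds an 18-nt coding exon at 71227827 to 71227844, which a noncoding transcript extends upstream to 71227751. The motif printed above ends 129 nt upstream of that exon, and the other UGCAUG begins 36 nt downstream of it. The stretch had 20, 27 and 43 edited reads in the RBFOX2-INSCRIBE libraries, 1, 2 and 4 in enzyme-only, and 1, 1 and 3 in buffer-only. All RBFOX2-INSCRIBE libraries were far above all control libraries, at 102 ± 48.2 CPM in RBFOX2-INSCRIBE, 9.11 ± 6.25 CPM in enzyme-only and 8.70 ± 6.90 CPM in buffer-only. It held 39.8% of the edited reads of the gene in RBFOX2-INSCRIBE, 7.22% in enzyme-only and 7.46% in buffer-only. The sites listed there were covered by a median, by library, of between 42.5 and 56 reads in RBFOX2-INSCRIBE, between 41 and 65 in enzyme-only and between 53 and 63 in buffer-only, and the highest edit fraction at a site was 17.9% in RBFOX2-INSCRIBE, 2.86% in enzyme-only and 4% in buffer-only.

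Reads were not even along the Dync1i2 stretch. The cluster with the printed motif (71227684 to 71227844) had 6, 5 and 19 edited reads in the RBFOX2-INSCRIBE libraries, 0, 0 and 2 in enzyme-only and 0, 0 and 0 in buffer-only. The middle cluster (71227890 to 71228024) had 8, 8 and 9, 0, 0 and 1, and 1, 0 and 0 in the same order, and the third (71228385 to 71228474), which holds GCAUG but not UGCAUG, had 5, 12 and 9, 0, 1 and 0, and 0, 0 and 0. Replicate 3 was high in the first cluster and level with the other RBFOX2-INSCRIBE libraries in the middle one. Another replicated RBFOX2-INSCRIBE cluster of Dync1i2 lay outside the stretch in an annotated exon (71262934 to 71262993), with 2, 2 and 3 reads in RBFOX2-INSCRIBE and 0 in every control library. A replicated intronic enzyme-only cluster of Dync1i2 (71220619 to 71220708) had 1, 1 and 3 reads in enzyme-only and 0 in all other libraries. In the rest of the gene Dync1i2 had 151 ± 17.8 CPM in RBFOX2-INSCRIBE, 116 ± 6.66 CPM in enzyme-only and 102 ± 39.6 CPM in buffer-only.

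**Figure D3:**
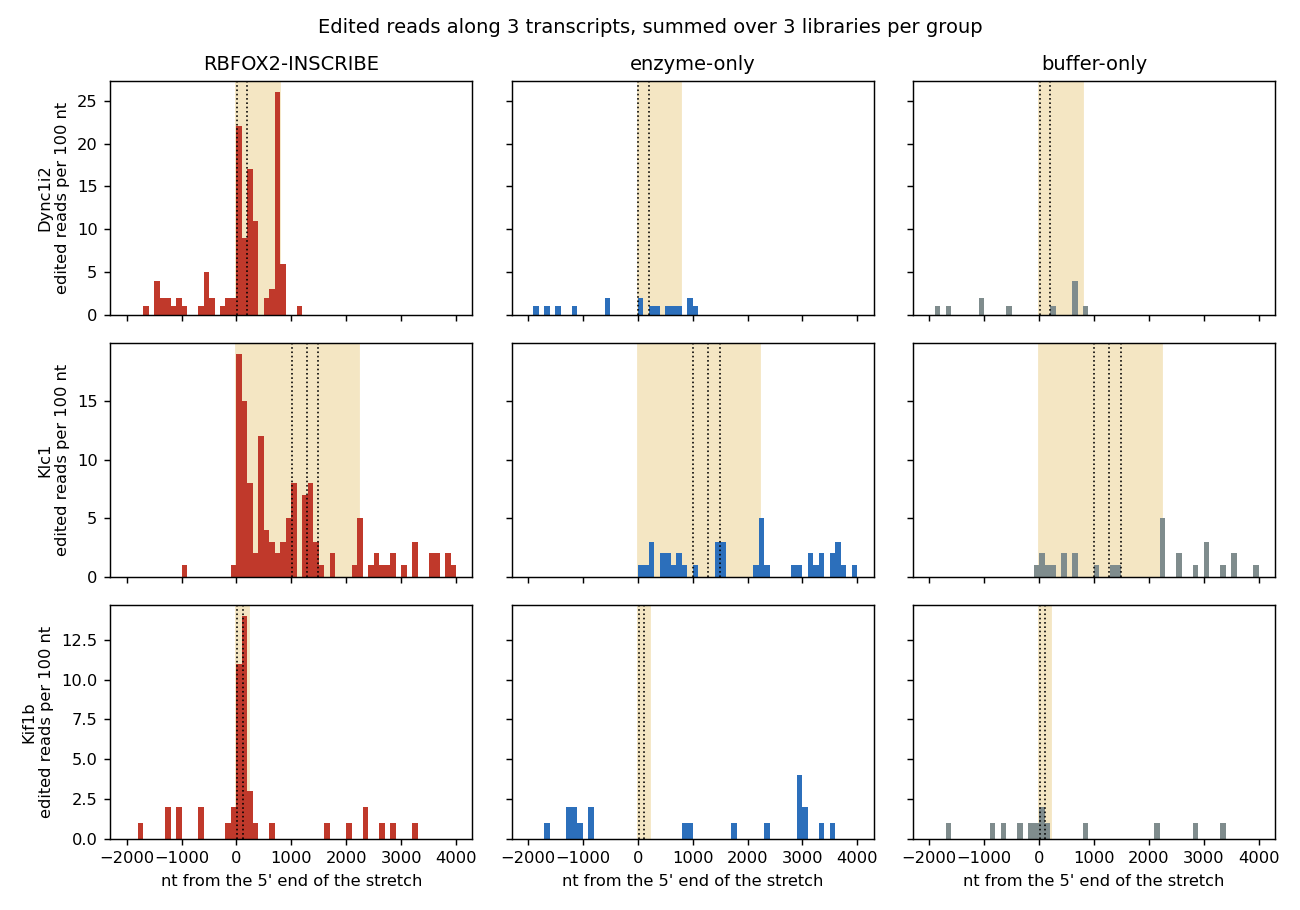
Edited reads per 100 nt, summed over the 3 libraries of a group, against distance in nt from the 5′ end of the stretch (shaded) in Dync1i2, Klc1 and Kif1b; dotted lines mark UGCAUG. In RBFOX2-INSCRIBE the reads pile up inside the shaded stretch (90 in Dync1i2, 108 in Klc1 and 27 in Kif1b), against 7, 26 and 0 in enzyme-only and 5, 16 and 3 in buffer-only. Upstream of the Dync1i2 stretch RBFOX2-INSCRIBE also had up to 5 reads per 100 nt, against up to 2 in each control.

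The Klc1 stretch was longer and lay directly behind an exon. It covers 2235 nt at chr12:111789562-111791796, or 4.56% of the gene, starts 75 nt after the end of an exon of coding transcripts (111789325 to 111789486; in other transcripts the intron begins at 111789460), and holds 4 clusters, 3 UGCAUG and 6 GCAUG. Edited reads there numbered 31, 26 and 51 in RBFOX2-INSCRIBE, 9, 11 and 6 in enzyme-only, and 7, 7 and 2 in buffer-only. The groups were clearly apart, at 122 ± 55.1 CPM in RBFOX2-INSCRIBE, 33.3 ± 8.46 CPM in enzyme-only and 25.8 ± 13.4 CPM in buffer-only. The stretch had 60 distinct listed sites in RBFOX2-INSCRIBE, 19 in enzyme-only and 12 in buffer-only. Edit fractions differed little, with a median of 2.105%, 2.353% and 1.852% and a highest value of 10%, 7.14% and 7.69% in that order. Median cover by library was 53.5 to 64.5, 40 to 47 and 35.5 to 61 reads. In the rest of the gene the group means differed by less than the spread between libraries, at 126 ± 14.1, 128 ± 16.6 and 131 ± 12.97 CPM in the same order. The stretch held 48.6% of the edited reads of Klc1 in RBFOX2-INSCRIBE, 20.8% in enzyme-only and 16.5% in buffer-only. Its most edited cluster was not the one with UGCAUG: the cluster next to the exon (111789562 to 111789876) had 10, 9 and 23 reads in the RBFOX2-INSCRIBE libraries, 2, 2 and 1 in enzyme-only and 1, 2 and 1 in buffer-only, and the cluster with the printed motif (111790792 to 111790971) had 1, 4 and 10, 0, 0 and 0, and 1, 0 and 0. The last cluster of the stretch (111791752 to 111791796) showed no such difference, with 1, 2 and 2 reads in the RBFOX2-INSCRIBE libraries, 1, 2 and 2 in enzyme-only and 3, 2 and 0 in buffer-only, and it overlaps a replicated enzyme-only cluster.

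In Kif1b the gene as a whole did not show its site. The stretch of Kif1b is a single cluster of 225 nt at chr4:149259657-149259881 on the minus strand, 0.171% of the gene, with 2 UGCAUG, in intron 12 or 14, depending on the transcript, with its nearer motif 1296 nt downstream of an exon of a coding transcript. Edited reads there numbered 11, 6 and 10 in RBFOX2-INSCRIBE, 0, 0 and 0 in enzyme-only, and 1, 1 and 1 in buffer-only. Every RBFOX2-INSCRIBE library was above every control library at the site, where the 0 reads of enzyme-only allow up to 3. The rest of the gene had 276 ± 47.4 CPM in RBFOX2-INSCRIBE, 307 ± 44.5 CPM in enzyme-only and 287 ± 44.2 CPM in buffer-only, and the site held 9.71% of the edited reads of Kif1b in RBFOX2-INSCRIBE.

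**Figure D4:**
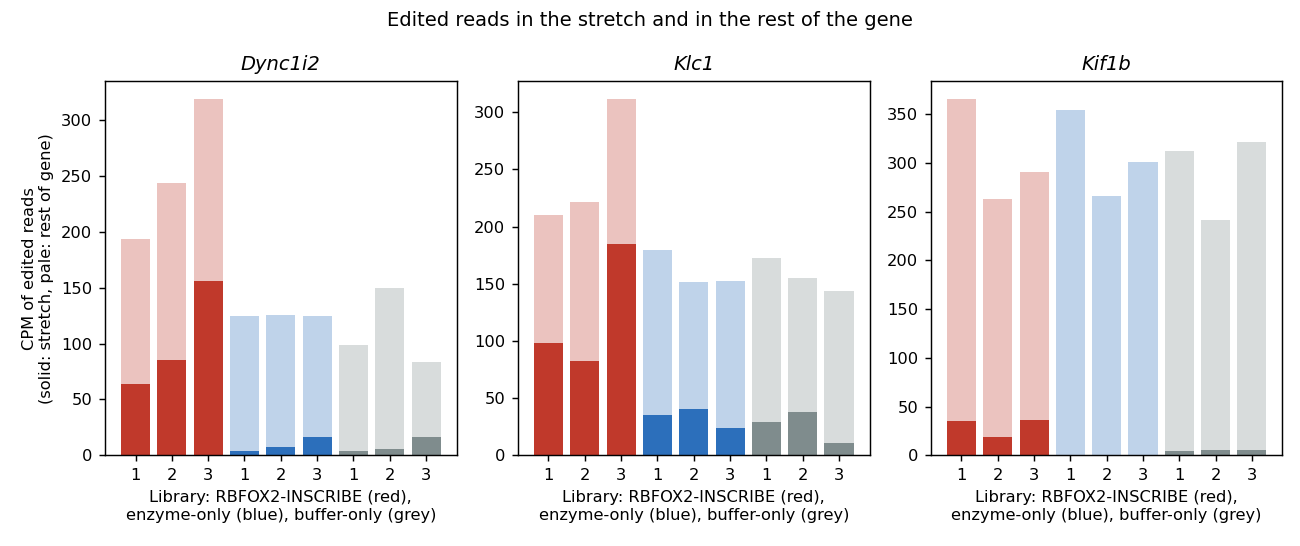
CPM of edited reads of Dync1i2, Klc1 and Kif1b in each library, with the stretch as the solid part of the bar and the rest of the gene as the pale part stacked on it. The solid part is tallest in the 3 RBFOX2-INSCRIBE libraries of each gene, and the pale part of Klc1 averages 126 CPM in RBFOX2-INSCRIBE, 128 CPM in enzyme-only and 131 CPM in buffer-only.

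The other replicated clusters of motor genes were smaller and mostly without the motif. The 18 RBFOX2-INSCRIBE clusters lay in 10 genes, 12 of them in introns, the 21 enzyme-only clusters lay in 14 genes, 16 of them in exons, and the 11 buffer-only clusters lay in 8 genes. Lengths ran from 32 to 315 nt in RBFOX2-INSCRIBE, 45 to 120 nt in enzyme-only and 30 to 45 nt in buffer-only. In Kif3a, a kinesin-2 heavy chain, an intronic RBFOX2-INSCRIBE cluster without UGCAUG had 4, 1 and 2 reads in RBFOX2-INSCRIBE and 0 in every control library. An exonic enzyme-only cluster of Kif2a (chr13:106961427-106961471) had the reverse, with 3, 2 and 1 reads in enzyme-only and 0 in all other libraries. The Kif3b cluster with the printed motif, which is in the enzyme-only list, had 0, 0 and 3 reads in the RBFOX2-INSCRIBE libraries, 1, 5 and 3 in enzyme-only and 0, 1 and 1 in buffer-only. The buffer-only cluster with UGCAUG was a different intronic site of Kif1b (chr4:149193228-149193272), with 1, 0 and 1 reads in buffer-only and 0 in all other libraries.

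Edits close to UGCAUG were counted in all motor genes, not only at replicated clusters. The share of motor edited reads within 50 nt of UGCAUG on the strand of the gene was 5.86%, 7.98% and 9.50% in the RBFOX2-INSCRIBE libraries, 2.69%, 3.84% and 5.06% in enzyme-only, and 3.51%, 3.45% and 2.86% in buffer-only. All RBFOX2-INSCRIBE libraries were above all control libraries, although the Wilson 95% interval of the lowest (4.70% to 7.29%) overlapped that of the highest enzyme-only library (3.80% to 6.71%); these intervals cover counting error only. Over all genes the shares lay between 5.37% and 5.99% for RBFOX2-INSCRIBE, between 3.51% and 3.66% for enzyme-only and between 3.31% and 3.43% for buffer-only. The interval of the motor gene share lay wholly above the total of its library in replicates 2 and 3 of RBFOX2-INSCRIBE and in replicate 3 of enzyme-only, whose total was 3.66%, and it held the total in the other 6 libraries. These totals mix introns and exons, and motor edits were more intronic. In introns alone the motor share was 6.32%, 9.01% and 10.04% in RBFOX2-INSCRIBE, beside 6.91%, 6.32% and 7.19% over all genes. In enzyme-only it was 2.5%, 3.53% and 6.14%, beside 4.19%, 4.30% and 4.26%. Without Dync1i2, Klc1 and Kif1b the remaining motor genes had 4.63%, 6.26% and 7.30% in RBFOX2-INSCRIBE, against 2.29%, 3.80% and 4.56% in enzyme-only and 2.88%, 3.03% and 2.65% in buffer-only, and the lowest RBFOX2-INSCRIBE value then exceeded the highest enzyme-only value only slightly. UGCAUG occurs on the gene strand 15 times in Dync1i2 (2.91 per 10 kb), 28 times in Klc1 (5.72 per 10 kb) and 60 times in Kif1b (4.57 per 10 kb).

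**Figure D5:**
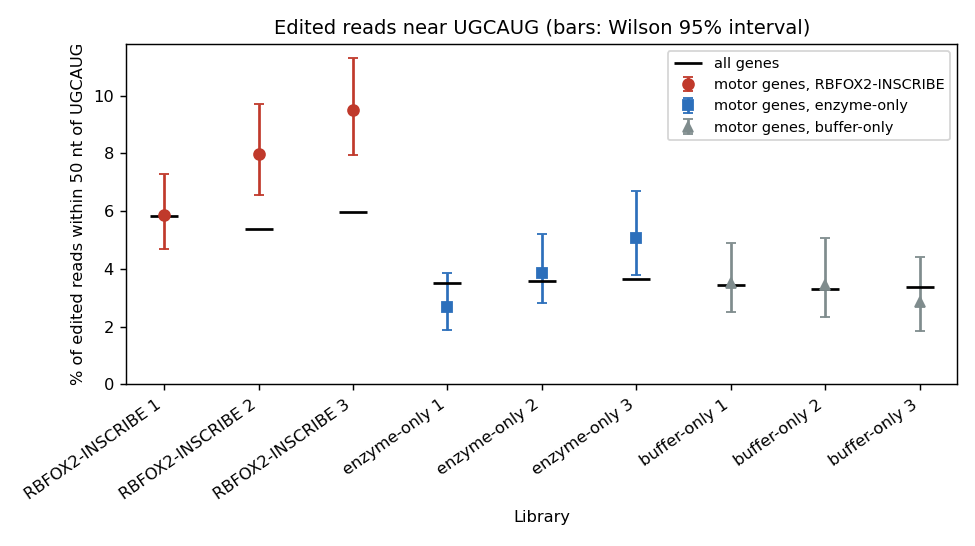
Percent of edited reads within 50 nt of UGCAUG in each library, for motor genes (points with Wilson 95% intervals) and for all genes (horizontal dashes). Motor genes in RBFOX2-INSCRIBE lie at 5.86% to 9.50%, enzyme-only at 2.69% to 5.06% and buffer-only at 2.86% to 3.51%.

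By gene, Dync1i2 had 41 reads near UGCAUG over the RBFOX2-INSCRIBE libraries, 3 over enzyme-only and 1 over buffer-only, and Kif1b had 38, 11 and 17 in the same order. Kif21a, a kinesin of developing axons that limits microtubule growth, had 28, 8 and 9, and Klc1 had 26, 11 and 2. Dync1i1 had 22, 9 and 2, Kif3c 21, 10 and 0, and Kif1a 17, 5 and 7. These genes had the most such reads in RBFOX2-INSCRIBE. Others went the other way, among them Kif3b with 6, 10 and 1, Kif2a with 2, 8 and 1, and Kifap3 with 1, 5 and 2. The sums are not scaled, and buffer-only libraries held fewer edited reads in all. As a share of its edited reads, Kif1b had 13.7% in RBFOX2-INSCRIBE, 4.62% in enzyme-only and 9.50% in buffer-only. The sum of Kif3c rested on unequal libraries, with 0, 5 and 16 reads in RBFOX2-INSCRIBE and 4, 0 and 6 in enzyme-only. A fit of near and far rows, chosen after seeing the data, left no near row of a motor gene above the filter on low counts, while the reads of Dync1i2 over 50 nt from UGCAUG were called higher, with a log2 change of 0.83 ± 0.22 over enzyme-only (edgeR adjusted p = 0.0321), beside 0.785% of far rows. These far reads numbered 56, 61 and 68 in RBFOX2-INSCRIBE, 32, 34 and 28 in enzyme-only and 23, 28 and 15 in buffer-only. Part of them lay inside the stretch of Dync1i2 described above. Of its 90 edited reads in RBFOX2-INSCRIBE, 34 were within 50 nt of UGCAUG, and of its 7 in enzyme-only, 1 was. The call was lost without RBFOX2-INSCRIBE replicate 3 (0.69, adjusted p = 0.185) and without enzyme-only replicate 1, 2 or 3 (adjusted p of 0.127, 0.1035 and 0.1075).

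Enzyme-only was set against buffer-only to see which edits the enzyme adds without an antibody. No motor gene was called in either direction by edgeR (0 of 28, with 0 higher and 1 lower at an unadjusted p below 0.05), beside 0.282% of all genes called higher and 0.329% lower (5.37% and 5.62% at the unadjusted p). The median log2 change of the motor genes was -0.07, beside -0.01 for all genes tested. This comparison shares the enzyme-only libraries with the one above. Every enzyme-only library was above every buffer-only library in 1 motor gene (Kifap3, the adaptor subunit of kinesin-2, named after its values were seen) and below in 2 (10.8% and 5.02% of all genes). No motor gene was called in the exon and intron rows either, beside 0.533% of rows called higher and 0.287% lower. Dync1i2 and Klc1 had log2 changes of 0.09 ± 0.26 and -0.07 ± 0.23 over buffer-only. The smallest p among the lower values were those of Kif5a, a kinesin-1 heavy chain of neurons, with a log2 change of -0.55 (adjusted p = 0.427), Dync1h1 at -0.52 (adjusted p = 0.565), Kif1c at -0.51 (adjusted p = 0.531) and Kif16b at -0.44 (adjusted p = 0.694). Kif5a had 26, 28 and 25 edited reads in enzyme-only and 27, 34 and 24 in buffer-only, whose libraries held fewer edited reads in all, and its CPM did not overlap, at 102 ± 1.71 in enzyme-only and 142 ± 36.5 in buffer-only. The smallest p among the higher values were those of Kif2a at 0.36, Dynlt3 at 0.64, Kif3b at 0.35 and Kif5b at 0.36, with adjusted p from 0.735 to 0.797.

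Partners of the motors were counted from lists chosen with earlier results of these data known. For RBFOX2-INSCRIBE over enzyme-only, 0.908% of all genes tested were called higher and 0.0157% lower, and their median log2 change was -0.00444. In that comparison dynactin, the complex that links dynein to cargo, had 1 of 10 tested genes called higher and 0 lower. Its median log2 change was 0.12. The called gene was Dctn2, the dynactin subunit dynamitin, at 176 ± 44.96 CPM in RBFOX2-INSCRIBE, 90.9 ± 35.4 CPM in enzyme-only and 77.0 ± 17.7 CPM in buffer-only (log2 change 1.01, adjusted p = 0.0307). Capza2 and Dctn4, further dynactin subunits, followed by p with 0.39 and -0.39 and did not pass. Of 21 tested kinesin cargo adaptors 1 was called higher and 0 lower, with a median of 0.12. Grip1, an adaptor for glutamate receptors, had 685 ± 42 CPM in RBFOX2-INSCRIBE, 499 ± 64.3 CPM in enzyme-only and 604 ± 107 CPM in buffer-only (log2 change 0.52, adjusted p = 0.0418), and Snph and Ppfia1, which did not pass, had 0.48 and 0.61. None of 10 tested dynein regulators was called, with a median of 0.15 and values of 0.38 for Hook3, 0.22 for Bicdl1 and -0.35 for Hap1 at the smallest p. None of 12 myosins, the motors of actin filaments, was called, with a median of 0.06 and values of 0.43 for Myh10, 0.79 for Myo1d and 0.57 for Myo10. Of the axonemal dyneins, which beat cilia, 1 of 19 had enough reads to be tested (Dnal1, -0.13). In enzyme-only over buffer-only none of these lists had a called gene, beside 0.282% of all genes called higher and 0.329% lower.

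Cell marker values differed as well, and their part in the values of Dync1i2 and Klc1 was not tested. In RBFOX2-INSCRIBE over enzyme-only, 0 of 4 tested neuron markers were called, with a median log2 change of 0.41 and 3 genes whose RBFOX2-INSCRIBE libraries were all above enzyme-only, beside 6.57% of all genes (Snap25, Map2 and Rbfox3 had 0.45, 0.44 and 0.38 at the smallest p). Syt1, the most edited neuron marker, had 0.002, at 2249 ± 137 CPM in RBFOX2-INSCRIBE and 2343 ± 177 CPM in enzyme-only. Of 3 tested oligodendrocyte markers 0 were called, with a median of -0.37 (Mbp had -0.37 and Mobp -0.32), and 2 had all RBFOX2-INSCRIBE libraries below enzyme-only, beside 9.61% of all genes. Of 2 tested striatal neuron markers 1 was called higher and 0 lower, beside 0.908% and 0.0157% of all genes. It was Rarb, a retinoic acid receptor, at 173 ± 58.2 CPM in RBFOX2-INSCRIBE, 45.2 ± 9.45 CPM in enzyme-only and 27.6 ± 20.2 CPM in buffer-only (log2 change 1.98, edgeR adjusted p = 3.004e-05). The other, Drd1, had -0.73 and did not pass. None of 5 astrocyte, 2 microglia or 1 endothelial markers tested was called (medians 0.10, -0.57 and 0.04). Of 4 ependymal markers 1 had reads, at 14.5 CPM or less in every library.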

How the data were processed

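Brain libraries alone were analysed. The authors trimmed reads with cutadapt, aligned them to mm10 with STAR 2.5.2 (both versions 2.4.0 and 2.5.2 stand in the submitters' notes), and called C-to-U sites with SAILOR. The deposited site lists hold, for each site, counts of edited and covering reads, the edit fraction and a confidence score. The authors called clusters with FLARE (adjusted p of 0.1, merged within 15 nt); the deposited cluster lists give edited bases as counts, read depth as signal and a score, and further lists intersect replicates, before and after subtraction of buffer-only clusters (the first were used). The labels name a stranded and an unstranded kit, and the methods a stranded one for tissue, so strand was used. No deposited value is normalized.

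After the methods' filter (score over 0.5, fraction under 0.8), sites were assigned to GENCODE M21 genes on their strand; where several genes overlap, the only protein-coding one was taken and otherwise the site was left out. Every base checked was a C. Edited reads per gene were tested with edgeR 4.0.16 (quasi-likelihood, TMM, filterByExpr, 9 libraries, Benjamini-Hochberg), after a test on simulated counts. Named are Klc1, Dync1i2, called members, the 8 most edited, the 4 with the smallest p in each direction of each comparison, and those with a replicated UGCAUG cluster. Other lists: dynactin, dynein regulators, kinesin cargo adaptors, axonemal dyneins, myosins and cell markers. Members, lists and rules were chosen with earlier results of these data known. Cluster labels shared with another gene, 97.65% for Kif5c and 48.8% to 64.9% for Kif3c, Kif17, Kif2a, Kif13a, Kif13b and Kif1c, come from the cluster lists; at most 3.75% of these genes' edited reads lay in an overlap (100% for Dynlt1b). The value of 1 marker gene is not reported here.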

Additional observations from a re-analysis of the deposited data

How the results depend on the processing

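In RBFOX2-INSCRIBE over enzyme-only, Dync1i2 kept its direction in every alternative tried (log2 change 0.76 to 1.26). Its call at gene level was lost with covering reads per site entered as an offset, without RBFOX2-INSCRIBE replicate 3 (log2 change 0.87 to 1.24 over the libraries left out in turn), and in DESeq2, which gave it no adjusted p (1.07, unadjusted p = 0.0001275; 26 of the 28 motor genes had none), so that motor genes called numbered 0 in those settings and 0 to 1 over the libraries left out. Klc1 at gene level ranged over 0.49 to 0.80 in the same way. With every listed site, RBFOX2-INSCRIBE over enzyme-only called 157 genes instead of 59, enzyme-only over buffer-only 133 instead of 39, and gene parts 362 instead of 96, with Kif21b introns added among motor genes (0.89, adjusted p = 0.0454). The offset left 35 and 15 genes called in the same order of comparisons, and sites with at least 20 covering reads 15 in enzyme-only over buffer-only. Leaving out 1 library gave 27 to 66 genes in RBFOX2-INSCRIBE over enzyme-only (27 without enzyme-only replicate 1, 30 without replicate 2), 7 to 24 in enzyme-only over buffer-only (7 without buffer-only replicate 1), 32 to 120 gene parts, 0 to 2 motor gene parts, 0 to 2 motor rows near or far from UGCAUG, and 0 motor genes in enzyme-only over buffer-only. Deviations of same-numbered libraries correlated weakly (r of 0.02 to 0.06 between RBFOX2-INSCRIBE and enzyme-only), against -0.0559 to 0.0159 for libraries with different numbers. Such sparse counts cannot decide whether the numbers pair libraries, and the labels do not say. With the replicate block, 66 and 45 genes, 88 gene parts, 2 motor gene parts and 1 motor gene were called.

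Of all values, 52 changed sign, none with an adjusted p below 0.05. In RBFOX2-INSCRIBE over enzyme-only, every listed site gave -0.15 for Kif1a, -0.15 for Kif1b, -0.18 for Dync1h1 and 0.0705 for Kif5a, and at least 20 covering reads -0.14 for Kif21b, 0.13 for Dynlt3 and 0.23 for Kif5a. The offset gave -0.0822 for Kif1a, -0.36 for Kif1b, -0.05004 for Kif3c, -0.11 for Dync1h1, 0.51 for Dync1li1, -0.0249 for Kif5b and -0.14 for Kif16b, the replicate block 0.002127 for Dynlt3, and a fit of only the 2 groups -0.003445 for Kif21b. In enzyme-only over buffer-only, every listed site gave -0.14 for Kif1a, 0.0508 for Kif1b and -0.0629 for Kif21a, at least 20 covering reads -0.22 for Kif1a, and the offset 0.23 for Kif1b, -0.17 for Kif21a, -0.25 for Kif5c and -0.12 for Dync1li1. With 1 library left out, RBFOX2-INSCRIBE over enzyme-only ranged from -0.023 to 0.16 for Kif1a, -0.0713 to 0.16 for Kif1b, -0.0564 to 0.55 for Kif16b, -0.0201 to 0.23 for Kif21a, -0.05997 to 0.0653 for Kif21b, -0.62 to 0.11 for Dync1li1, -0.60 to 0.44 for Dynlt3 and -0.0393 to 0.64 for Kif5b. Enzyme-only over buffer-only ranged from -0.0599 to 0.12 for Kif5c, -0.0576 to 0.21 for Dync1li1, -0.0746 to 0.81 for Kif5b, -0.14 to 0.0719 for Kif1b, -0.13 to 0.0146 for Klc1, -0.13 to 0.28 for Kif21a and -0.0509 to 0.35 for Dync1i2. The cause of these changes was not tested. With most sites resting on 1 edited read, depth limits what single genes and sites can show.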
